A study of Mus musculus with 8 samples.

Results

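The Dlg, Shank and Homer genes encode the scaffold layers of the excitatory postsynaptic density, the protein mesh under the glutamate receptors of a synapse. The 10 genes described here are Dlg1 to Dlg4, Shank1 to Shank3 and Homer1 to Homer3, taken by symbol from the 56576 genes of the deposited table. All 10 passed the filter on low values (a mean of 10 or more normalized counts in controls or in mutants), as did 31171 genes in all, which were the genes tested. In all 10 the control and mutant libraries overlapped in their level of ribosome-associated RNA, where 4.93% of all genes tested did not overlap. The call used an unadjusted p of 0.05 or less and a fold change of 1.5 or more. Of the 10 genes, 1 (Homer3) met it for a higher level in Erbb4 conditional mutants, where 3.98% of all genes tested did. For a lower level 0 met it, where 3.17% of all genes tested did. The adjusted p of Homer3 was 0.58 from limma.

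RNA bound to tagged ribosomes was sequenced from cortical synaptosomes, pinched-off synaptic endings, of mice at postnatal day 15. Controls were Lhx6-Cre;ErbB4+/+;Rpl22HA/HA (n = 4) and mutants were Lhx6-Cre;ErbB4F/F;Rpl22HA/HA (n = 4), so both genotypes carried Lhx6-Cre and 2 copies of the Rpl22HA allele, which adds an HA tag to a ribosomal protein once Cre has acted. Lhx6-Cre recombines in cortical interneurons of the MGE lineage (medial ganglionic eminence, with neighbouring preoptic area), among them the parvalbumin (PV+) and somatostatin (SST+) cells. In mutants it removes the floxed ErbB4 receptor tyrosine kinase gene from those cells, and the comparison asks whether the RNA of excitatory postsynaptic scaffolds on synaptic ribosomes differs without it.

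Dlg proteins are membrane-associated guanylate kinases (MAGUKs), whose PDZ domains bind the carboxyl ends of NMDA receptor subunits, stargazin-type AMPA receptor subunits, neuroligins and potassium channels. Dlgap proteins link them to Shank proteins, which form the deeper layer of the density and bind Homer through a proline-rich stretch. Homer proteins assemble into tetramers through coiled coils and bind group I metabotropic glutamate receptors and inositol trisphosphate receptors through their EVH1 domain. On dendrites of cortical interneurons, which mostly lack spines, these scaffolds sit at synapses on the shaft.

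The members of each family are paralogs, and reads from stretches that they share could be counted for the wrong gene. Their longest coding sequences were therefore compared in the GENCODE M21 annotation of GRCm38 (the mm10 build). Over aligned bases, identity ran from 69.5% to 72.3% between Dlg genes, from 66.1% to 67.4% between Shank genes and from 63.9% to 65.7% between Homer genes. Among the 12 pairs within a family, the longest run of identical coding bases was 26, reached by 3 pairs. For the Dlg family, the 60 coding bases that hold the 26-base run shared by Dlg2 and Dlg4 are shown with the matching stretch of the other members, 5′ to 3′, with capitals at the 40 positions where all 4 genes are identical.
Dlg1: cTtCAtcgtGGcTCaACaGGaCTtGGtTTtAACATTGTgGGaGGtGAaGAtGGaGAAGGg
Dlg2: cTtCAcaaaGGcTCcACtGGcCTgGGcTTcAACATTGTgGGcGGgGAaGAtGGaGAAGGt
Dlg3: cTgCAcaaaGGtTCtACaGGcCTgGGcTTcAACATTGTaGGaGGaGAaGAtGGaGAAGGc
Dlg4: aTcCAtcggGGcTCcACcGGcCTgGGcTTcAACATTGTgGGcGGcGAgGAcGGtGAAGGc
These stretches lie within 1 coding exon each, on the plus strand, at chr16:31812687-31812746 (Dlg1), chr7:92088581-92088640 (Dlg2), chrX:100775826-100775885 (Dlg3) and chr11:70039181-70039240 (Dlg4). For the Shank family, the 60 bases around the 26-base run shared by Shank1 and Shank3 hold 40 positions that are identical in all 3 genes, again in capitals.
Shank1: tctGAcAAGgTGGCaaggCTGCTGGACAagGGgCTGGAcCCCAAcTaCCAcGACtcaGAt
Shank2: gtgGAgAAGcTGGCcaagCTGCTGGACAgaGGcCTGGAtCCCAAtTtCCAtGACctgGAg
Shank3: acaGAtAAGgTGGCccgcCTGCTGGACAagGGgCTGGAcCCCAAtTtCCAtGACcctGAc
They lie on the plus strand at chr7:44316075-44316134 (Shank1), chr7:144057729-144057788 (Shank2) and chr15:89503162-89503221 (Shank3), each within 1 coding exon. The Shank2 stretch belongs to a longer annotated transcript and lies upstream of the start that the deposited table gives for the gene. For the Homer family, the 60 bases shown hold the 17-base run shared by Homer1 and Homer2, and 46 positions are identical in all 3 genes.
Homer1: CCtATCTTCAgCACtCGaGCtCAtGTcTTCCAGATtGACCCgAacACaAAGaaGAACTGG
Homer2: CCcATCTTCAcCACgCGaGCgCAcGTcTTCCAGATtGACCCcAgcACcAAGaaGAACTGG
Homer3: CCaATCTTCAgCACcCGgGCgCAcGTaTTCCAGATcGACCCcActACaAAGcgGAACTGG
They lie at chr13:93341763-93341822 (Homer1, plus strand), chr7:81649644-81649703 (Homer2, minus strand) and chr8:70285401-70285460 (Homer3, plus strand), each within 1 coding exon near the start of the coding sequence. Untranslated regions were not compared.

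Reads recovered from the normalized counts came to 51010687 to 80226984 per control library and 58967504 to 74609576 per mutant library. The 10 scaffold genes had 470 to 8461 reads per library, so the coefficient of variation from counting alone was at most 4.61%, which covers counting error only. Between control libraries it was 21.4% (Homer3) to 59.8% (Shank1), and between mutant libraries 6.41% (Dlg3) to 58.1% (Dlg4). Erbb4 had 1640, 5377, 4306 and 3034 normalized counts in control replicates 1, 3, 4 and 5 and 1711, 1648, 1233 and 1048 in mutant replicates 2, 3, 4 and 5, so the library labelled control replicate 1 lay within the mutant range. Its log2 fold change was -1.25 and it was called lower (adjusted p = 0.58 from limma), and that of the tagged gene Rpl22 was -0.47 (adjusted p = 0.631 from limma). All 13 markers of MGE-derived interneurons were above 0 in every library, as were all 42 markers of excitatory neurons, astrocytes, oligodendrocytes, microglia and endothelial and mural cells. The markers of excitatory neurons summed to 101495 to 132830 normalized counts in controls and 95477 to 119255 in mutants. Those of oligodendrocytes summed to 225647 to 661371 in controls and 195883 to 281760 in mutants. The part of these other cells in the scaffold counts was not tested. The summed level of the MGE markers was 82081 to 537462 in controls and 33220 to 215252 in mutants. A large part of this sum was Sst, which alone had 31270 to 367992 in controls and 5964 to 143143 in mutants. In bulk RNA of this kind, fewer tagged synaptic endings and less RNA in each cannot be told apart. The study sequenced its libraries in 2 batches, and the labels do not tie libraries to them, so no within-batch values could be given. Mutant replicates 4 and 5 stood apart from mutant replicates 2 and 3 in Dlg1, Dlg4, Homer2, Homer3 and the summed MGE markers. Control replicates 4 and 5 stood apart from control replicates 1 and 3, in the same direction, in Dlg1, Homer3 and the summed MGE markers. The control MGE sums were 180148 and 82081, against 283247 and 537462. In Dlg4 and Homer2 the controls did not split in this way. The part of the batches in these splits was not tested.

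Control replicate 1 stood apart for the scaffold genes. It was the lowest control for 8 of the 10 genes, all but Homer2 and Homer3. For 7 of these its level was 0.516 to 0.615 times the mean of the other 3 controls, and for Shank1 it was 0.165 times that mean. Its Homer2 level was 1.21 times and its Homer3 level 0.929 times the mean of the other controls. In that library 28247 genes were above 0, against 31141 to 34364 in the others. Its summed level of oligodendrocyte markers was 661371, against 225647 to 353991 in the other controls. Mbp alone had 535543 in that library, against 168511 to 268287 in the other controls. Its astrocyte and microglia sums were also the highest of the controls, at 230085 against 132344 to 182104 and 42883 against 21820 to 35727. Its summed level of endothelial and mural markers was 135346, against 154627 to 232947. Its sum of excitatory neuron markers, 101495, was the lowest of the controls, against 109250.5 to 132830. Its summed MGE markers, 283247, lay within the range of the other controls. The part of these cell types in its low scaffold levels was not tested. Log2 fold changes are therefore also given without this library.

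Across the 10 genes, log2 fold changes (mutant minus control, on the log2(normalized count + 1) scale) ran from -0.44 (Homer2) to 0.63 (Homer3), with a median of 0.01 against 0.06 over all genes tested. In 5 of the 10 genes the fold change was below 0, as in 46.6% of all genes. A gene was called when its unadjusted limma p was 0.05 or less and its fold change 1.5 or more. Of the 10 genes 0 were called lower, where 3.17% of all genes were, and 1 was called higher, where 3.98% of all genes were. With an adjusted p under 0.05 (limma, Benjamini-Hochberg) 0 of the 10 genes were called, where 0.0449% of all genes were, and the lowest adjusted p among them was 0.58. At an unadjusted p under 0.05, limma, edgeR and DESeq2 each had 1 of the 10 genes. Over the 31171 genes tested, limma had 1175 lower and 1421 higher at that p. With the fold threshold as well, edgeR called 1206 genes lower and 1073 higher, and DESeq2 1573 and 1261. With edgeR and DESeq2, 0 of the 10 genes had an adjusted p under 0.05. The 4 mutant values lay wholly above or below the 4 control values in 0 of the 10 genes, against 4.93% of all genes. Without control replicate 1, 7 of the 10 fold changes were below 0, and the median was -0.20 against -0.0004 over all genes tested. Of the 10 genes 0 were then called, where 631 of all genes tested were called lower and 890 higher.

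A p that misses the threshold leaves a range of differences possible, and the 95% intervals of the limma fit give it. The interval spanned no change in 9 of the 10 genes. In 3 genes, Dlg3, Shank2 and Shank3, it held neither a 1.5-fold fall nor a 1.5-fold rise. It held a 1.5-fold fall in 4 genes and a 1.5-fold rise in 5. The widest interval was that of Shank1, from 0.506 to 2.54 times the control level, and the lowest bound was that of Dlg4, at 0.43 times.

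**Figure D1:**
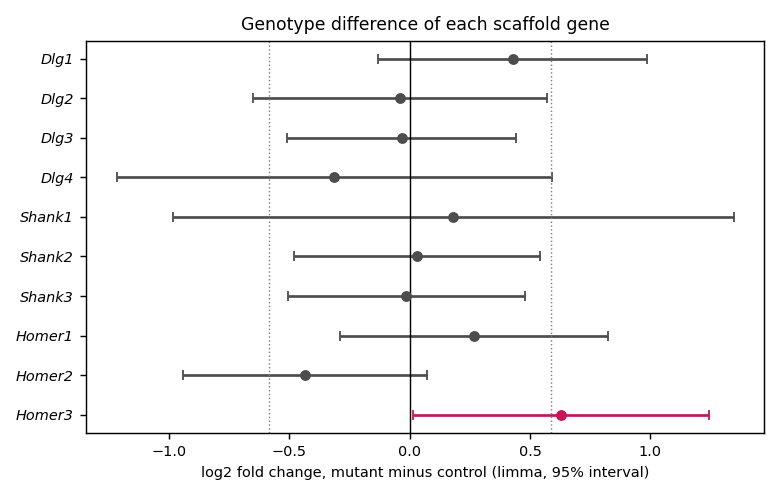
Log2 fold change of each scaffold gene (mutant minus control, limma on log2(normalized count + 1)), with the 95% interval as a bar, a solid line at no change and dotted lines at 1.5-fold. Homer3, in colour, is the gene called, and the intervals of the other 9 genes cross the solid line.

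Among the Dlg genes, Dlg3 had the highest mean normalized count in both genotypes and Dlg2 the lowest. In mutant replicate 5, however, Dlg1 exceeded Dlg3 (5957 against 5413). In none of the 4 genes did the genotypes separate. Dlg4 (chr11:70017203-70045532 in the deposited table) encodes PSD-95, the main MAGUK of mature excitatory synapses. Its normalized counts were 1317, 3286, 1584 and 2023 in control replicates 1, 3, 4 and 5, and 1976, 3122, 1076 and 877 in mutant replicates 2, 3, 4 and 5. Replicate 3 was the highest library in both genotypes, and mutant replicates 4 and 5 were the lowest of all 8, so the genotypes overlapped. The means were 2053 ± 872 in controls and 1763 ± 1025 in mutants (SD, n = 4 each). The log2 fold change was -0.31 (95% interval -1.22 to 0.59, adjusted p = 0.794 from limma), and -0.50 without control replicate 1. With 1 library left out at a time it ran from -0.65 (without mutant replicate 3) to -0.04 (without mutant replicate 5), and it was -0.06 without control replicate 3. Summed MGE markers were also lowest in mutant replicates 4 and 5 (61759 and 33220), while control replicate 5, with 82081, had the second-highest Dlg4 level of the controls. The part of the marker levels in the spread of Dlg4 was not tested.

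Dlg1 (chr16:31663443-31875129) encodes SAP97, a MAGUK that takes part in AMPA receptor trafficking and also occurs outside synapses. It had 2483, 3578, 4561 and 4501 normalized counts in the controls and 3682, 4417, 6156 and 5957 in the mutants, in the same replicate order. Mutant replicates 4 and 5 exceeded every control, whereas mutant replicates 2 and 3 lay within the control range. The means were 3781 ± 975 and 5053 ± 1200 (SD, n = 4 each). The log2 fold change was 0.43 (95% interval -0.13 to 0.99) with an adjusted p of 0.594 from limma, and an exact permutation test gave p = 0.2 (two-sided). It was 0.24 without control replicate 1.

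Dlg3 (chrX:100767722-100818408) encodes SAP102, a MAGUK prominent at developing synapses. Its controls ranged widely, at 4076, 5423, 7300.4 and 7178, while its mutants were close together at 5569, 5602, 6241 and 5413. The mutant values lay inside the control range. The means were 5995 ± 1540 in controls and 5706 ± 366 in mutants (SD, n = 4 each), with a log2 fold change of -0.03 (95% interval -0.51 to 0.44, adjusted p = 0.966 from limma) and -0.21 without control replicate 1. Dlg2 (chr7:91090786-92449246) encodes PSD-93, which also clusters potassium channels on axons. It had 652, 1427, 1230.1 and 1135 normalized counts in controls and 1218, 1220.4, 972 and 803 in mutants, again with the mutants inside the control range. Its log2 fold change was -0.04 (95% interval -0.65 to 0.57, adjusted p = 0.968 from limma), and -0.28 without control replicate 1. The signs of Dlg2 and Dlg3 turned when reads were scaled to the library total (0.14 and 0.15), where the median of all genes moved up by 0.18.

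The Shank genes showed no genotype separation either, and control replicate 1 was the lowest control in all 3. Shank1 (chr7:44310264-44358353), whose protein enlarges spine heads in pyramidal cells, had 878, 4029, 5043 and 6883 normalized counts in control replicates 1, 3, 4 and 5. The mutant replicates 2, 3, 4 and 5 had 3767, 5244, 3172 and 3238. With control replicate 1 set aside, mutant replicate 3 alone reached into the range of the controls. The mean was lower in mutants (3855 ± 963) than in controls (4208 ± 2515, SD, n = 4 each), whereas the log2 fold change was 0.18 (95% interval -0.98 to 1.35, adjusted p = 0.921 from limma). Without control replicate 1 it was -0.46 (adjusted p = 0.765 from limma). The direction of Shank1 thus depended on that library, and it depended on the fit as well. With every library kept, its log2 fold change was -0.11 with edgeR, -0.11 with DESeq2 and -0.46 with library weights.

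Shank2 (chr7:144175460-144426042) had 3381, 4311, 6425 and 6281 normalized counts in controls and 5169, 5658, 4434 and 4934 in mutants. Shank3 (chr15:89499608-89560261), whose loss in people causes Phelan-McDermid syndrome, had 4537, 7037, 7088 and 8665 in controls and 5657, 7811, 6677 and 6376 in mutants. In both genes every mutant value lay between the lowest and the highest control. The means were 5099 ± 1497 and 5049 ± 509 for Shank2 and 6832 ± 1706 and 6630 ± 896 for Shank3 (controls and mutants, SD, n = 4 each). Log2 fold changes were 0.03 for Shank2 (95% interval -0.48 to 0.54, adjusted p = 0.972 from limma) and -0.02 for Shank3 (95% interval -0.51 to 0.48, adjusted p = 0.985 from limma). Without control replicate 1 they were -0.15 and -0.20.

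The Homer genes differed in direction. Homer3 was called higher in mutants, Homer2 had a lower mean that did not pass the call, and Homer1 had a higher mean that did not pass it either. Homer3 (chr8:70282999-70294361), a paralog with the same EVH1 and coiled-coil plan as Homer1, had 1003, 766, 1267 and 1207 normalized counts in control replicates 1, 3, 4 and 5, and 1132, 1274, 2099.8 and 2216 in mutant replicates 2, 3, 4 and 5. Mutant replicates 4 and 5 were well above every control, whereas mutant replicate 2 lay within the control range and mutant replicate 3 just above it. The means were 1061 ± 227 in controls and 1680.4 ± 556 in mutants (SD, n = 4 each). The log2 fold change was 0.63 (standard error 0.28, 95% interval 0.01 to 1.24), with an unadjusted p of 0.0463 and an adjusted p of 0.58 from limma. A two-sided exact permutation test gave p = 0.114, and 0.0286 is the smallest value it can give with 4 libraries a genotype.

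The Homer3 call depended on single libraries. It was lost without control replicate 1 (log2 fold change 0.61), control replicate 3 (0.48), mutant replicate 4 (0.50) or mutant replicate 5 (0.47), with adjusted p values from limma of 0.765, 0.729, 0.819 and 0.828. Over all 21 alternative settings and left-out libraries the fold change stayed above 0, from 0.47 to 1.51, the call held in 16, and adjusted p ran from 0.131 to 0.828. Exons of Ddx49, on the opposite strand, cover 874 of the 3440 exon bases of Homer3 (25.4%). Whether counting used the strand is not given in the sources used here, so reads from the overlap cannot be told apart. Ddx49 itself had 1394 ± 377 normalized counts in controls and 1306 ± 317 in mutants (SD, n = 4 each), with a log2 fold change of -0.08 and an adjusted p of 0.926 from limma. Among the endothelial and mural markers, Flt1, Kdr, Pecam1, Pdgfrb and Acta2 were also highest in mutant replicates 4 and 5. Flt1 had 78265 and 74002 there, against 29191 to 59167 in the other libraries. Cldn5, Cdh5 and Rgs5 were lower there than in mutant replicates 2 and 3 (Cldn5 49253 and 44955, against 75725 and 76229). The summed endothelial and mural markers were not highest there, at 227520 and 217371, against 235193 and 220515 in mutant replicates 2 and 3. The part of these cells in the Homer3 difference was not tested.

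Homer2 (chr7:81600481-81707529), a long Homer with the coiled coil, had 4375, 3306, 2722 and 4795 normalized counts in controls and 3008, 3315, 2177 and 2589 in mutants. Mutant replicates 4 and 5 were below every control, and mutant replicates 2 and 3 were not. The means were 3799.6 ± 953 and 2772 ± 496 (SD, n = 4 each). The log2 fold change was -0.44 (95% interval -0.94 to 0.07), with an adjusted p of 0.581 from limma, and an exact permutation test gave p = 0.143 (two-sided). Leaving out control replicate 4 gave -0.59, which met the call (adjusted p = 0.447 from limma). Relative to the MGE markers, the signs of Homer2 (0.44) and Dlg4 (0.56) turned. Homer1 (chr13:93303756-93405129) makes long scaffold forms and the short, activity-induced Homer1a, which counts on regions common to all transcripts do not separate. It had 641, 1176, 1348 and 1089.6 normalized counts in controls and 1153, 1274, 1385 and 1142 in mutants. Control replicate 1 was well below the other libraries, whose values overlapped. Its log2 fold change was 0.27 (95% interval -0.29 to 0.82, adjusted p = 0.717 from limma), and 0.04 without control replicate 1.

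The ratio of Homer3 to Homer2 normalized counts was 0.229, 0.232, 0.465 and 0.252 in controls and 0.376, 0.384, 0.965 and 0.856 in mutants. Control replicate 4 lay above mutant replicates 2 and 3, so the genotypes overlapped in this ratio too, which is given as a description. The mean ratio was 0.295 ± 0.114 in controls and 0.645 ± 0.309 in mutants (SD, n = 4 each).

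**Figure D2:**
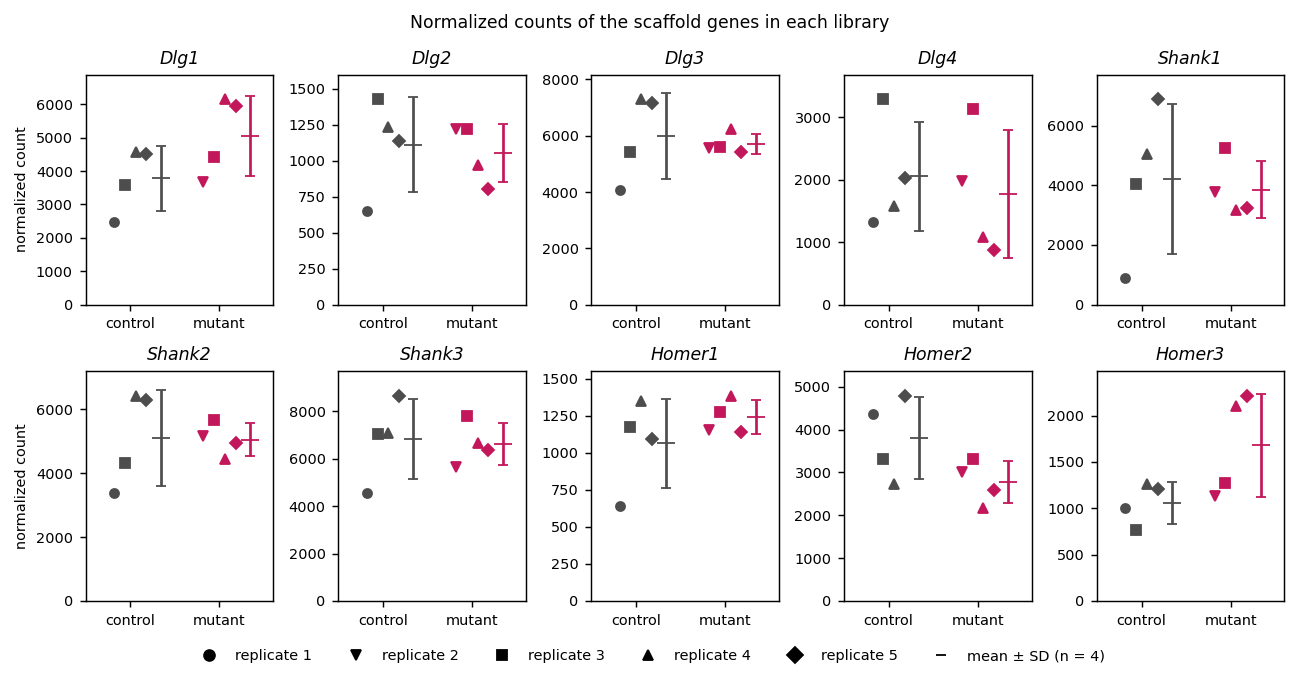
Normalized counts of the 10 scaffold genes in the 4 control and 4 mutant libraries, with a marker shape for each replicate number and the mean ± SD (n = 4) beside each genotype; every vertical axis starts at 0. Control replicate 1 (circles) is the lowest control in 8 genes, and mutant replicates 4 and 5 are the highest libraries for Dlg1 and Homer3 and the lowest for Dlg4 and Homer2.

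Levels of different genes were compared per kilobase of the longest annotated transcript. In controls, Dlg3 was highest at 1195 ± 307 normalized counts per kb, followed by Shank3 (928 ± 232), Dlg1 (615 ± 159), Shank2 (567 ± 167) and Shank1 (428 ± 256, SD, n = 4 each). Homer3 (407 ± 87.0), Homer2 (346 ± 86.8), Dlg4 (325 ± 138), Homer1 (186 ± 52.8) and Dlg2 (142 ± 42.2) followed. Dlg3 stood at the 81.3rd percentile and Dlg2 at the 39.3rd percentile of the 16589 genes with a transcript length, whose median was 248 normalized counts per kb in controls. Neighbours in this order were compared by their log2 ratio within each of the 8 libraries. The mean ratio exceeded its SD only between Dlg3 and Shank3 (0.35 ± 0.18), between Shank3 and Dlg1 (0.37 ± 0.35) and between Homer1 and Dlg2 (0.55 ± 0.28). By this measure the other 6 neighbours did not differ beyond their spread. Counted by library, Dlg1 nevertheless exceeded Shank2 in 8 of 8 (0.33 ± 0.38), and Shank3 exceeded Dlg1 in 6 of 8. The mean ratio of Shank1 to Homer3 ran against the order (-0.46), with Shank1 higher in 4 of 8.

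The order depended on the length used. Per kilobase of coding sequence, Homer2 moved from place 7 to place 1 (3578 ± 898 normalized counts per coding kb), since its longest transcript has 10982 bases and its coding sequence 1062. Dlg3 then came second (2354 ± 605), and 7 of the 10 genes changed place. In both orders Dlg2 was last, Dlg1 was the third and Dlg4 was the eighth. The authors counted reads on constitutive regions whose lengths are not given in the sources used here, so neither length is that of the counted bases.

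**Figure D3:**
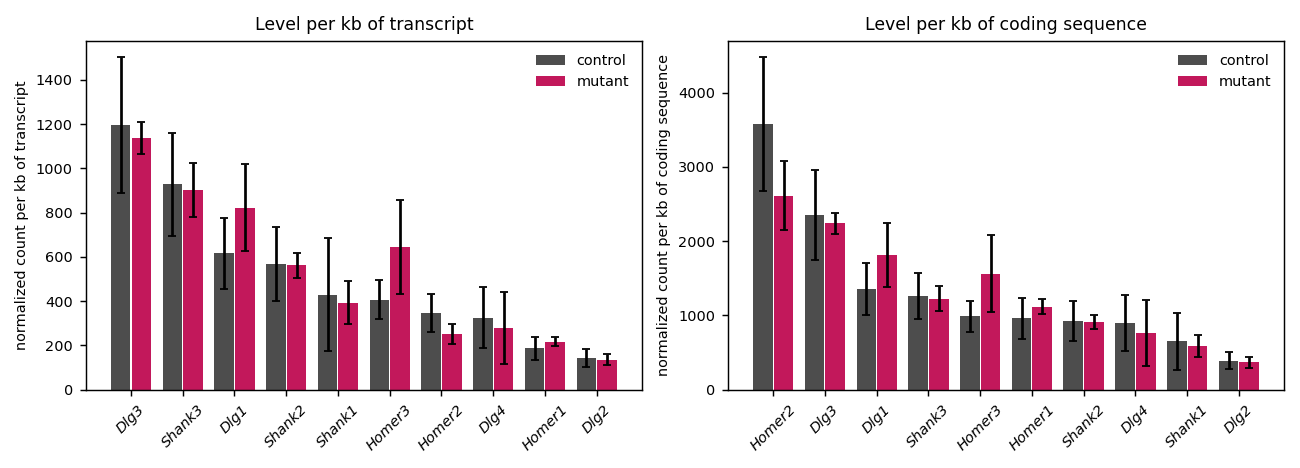
Level of each scaffold gene in controls and mutants as normalized count per kb of longest transcript (left) and per kb of coding sequence (right), bars showing the mean and error bars the SD (n = 4), in order of the control level. Dlg3 leads the left panel at 1195 and Homer2 the right panel at 3578, and Dlg2 is last in both.

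Within the Dlg family, Dlg3 accounted for 47.2 ± 5.0% of the normalized counts per coding kb in controls, Dlg1 for 27.2 ± 2.2%, Dlg4 for 17.9 ± 6.2% and Dlg2 for 7.69 ± 1.1% (SD, n = 4). In mutants the Dlg1 share was 27.6%, 28.5%, 40.5% and 43.5% in replicates 2, 3, 4 and 5, against 24.1% to 29.2% in controls. Mutant replicates 4 and 5 thus lay above all controls and mutant replicates 2 and 3 within their range. The Dlg4 share in the same libraries was 17.9%, 24.4%, 8.55% and 7.74%, against 12.2% to 26.7% in controls.

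Within the Shank family the shares in controls and mutants were close, at 45.9 ± 5.7% and 44.9 ± 3.4% for Shank3, 33.3 ± 4.7% and 33.6 ± 2.5% for Shank2 and 20.8 ± 8.5% and 21.5 ± 2.6% for Shank1 (SD, n = 4 each). The Shank1 share was 8.52% in control replicate 1 and 19.3% to 27.9% in the other 7 libraries. Within the Homer family, Homer2 took 51.7% to 73.2% in controls and 39.1% to 57.5% in mutants, and Homer3 took 14.6% to 23.8% in controls and 21.4% to 37.2% in mutants. The genotypes overlapped in both. Homer1 took 17.8 ± 6.5% in controls and 21.1 ± 2.1% in mutants (SD, n = 4 each). These shares are descriptions, and on transcript length Homer3 and not Homer2 had the largest mean share of its family in controls (43.1 ± 5.5% against 36.9 ± 8.1%, SD, n = 4 each).

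**Figure D4:**
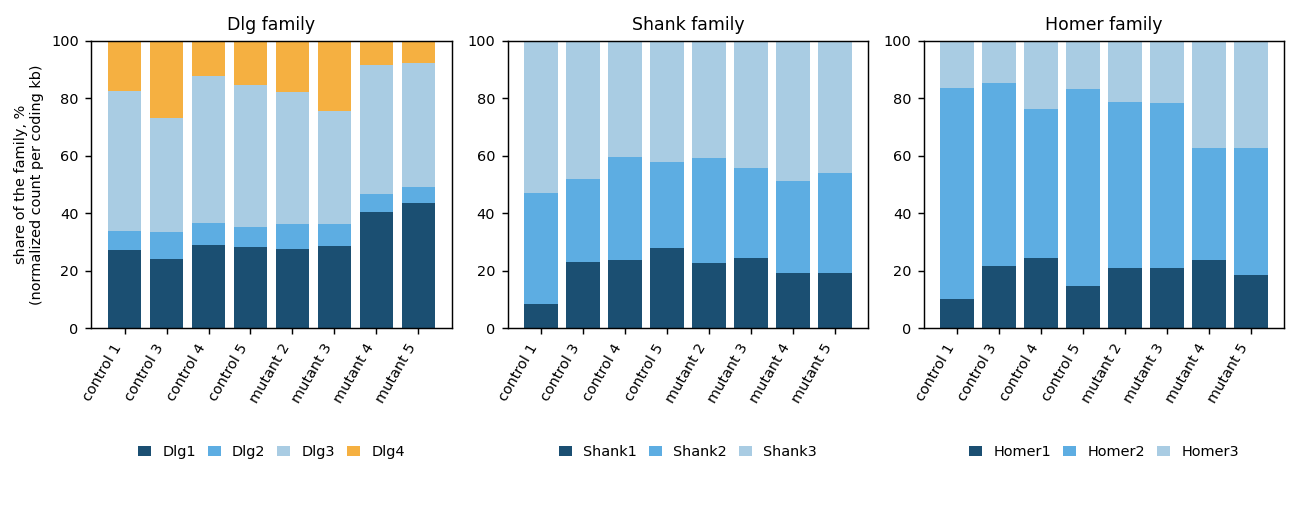
Share of each member in its family's summed normalized count per coding kb, as stacked bars that add up to 100% in each of the 4 control and 4 mutant libraries. The Dlg1 share reaches 40.5% and 43.5% in mutant replicates 4 and 5, the Shank1 share is 8.52% in control replicate 1, and the Homer3 share is 37.2% in mutant replicates 4 and 5.

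To place each member among all genes, the log2(normalized count + 1) values of 19135 genes with a mean of at least 100 were centred on each gene's own mean, and the root mean square (RMS) difference over the 8 libraries was taken. The nearest gene was Rasgrp3 for Homer3 (RMS 0.0782), Cadps2 for Dlg3 (0.0665), Zfp382 for Shank3 (0.0634), Axin1 for Dlg1 (0.0818) and Dock3 for Shank1 (0.134). Dlg3 and Shank2 were the members most alike (0.144), with Shank2 at place 42 in the order of likeness to Dlg3. The member nearest to Homer2 was Shank3 (0.445), which stood at place 4674 in the order of likeness to Homer2. These values all rest on the same 8 libraries, the low control replicate 1 among them.

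The proteins around the scaffolds were described by the same fit, read against the 3.17% of all genes called lower, the 3.98% called higher and the median of 0.06. The 10 linkers of the Dlg, Shank and Homer layers included 1 gene called lower, and their median log2 fold change was -0.07. The Dlgap genes, which join Dlg to Shank, had log2 fold changes of -0.03 (Dlgap1), -0.08 (Dlgap2), -0.24 (Dlgap3) and -0.04 (Dlgap4). The gene called was Dynll2, a dynein light chain that also binds Dlgap proteins, with 3843, 3326, 2121 and 2167 normalized counts in controls and 1868, 1689, 1318 and 1379 in mutants. Every mutant value of Dynll2 lay below every control, and its log2 fold change was -0.84 (adjusted p = 0.58 from limma). The highest fold change of the list was that of Cttn, an actin-binding partner of Shank, at 0.35. Of the 12 enzymes and regulators of the postsynaptic density 0 were called, with a median of -0.05, and the lowest log2 fold change was -0.51 (Cript, a ligand of the third Dlg PDZ domain).

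Of the 17 membrane proteins that Dlg PDZ domains anchor, 16 had a log2 fold change below 0, 2 were called lower and 0 higher, and the median was -0.29. The genes called were Cacng2, which encodes stargazin (log2 fold change -0.89, adjusted p = 0.58 from limma), and Kcnj4, an inward rectifier potassium channel (-0.61, adjusted p = 0.58 from limma). Cacng2 had 6687, 5231, 2517 and 2532 normalized counts in controls and 1943, 2738, 1816 and 1936 in mutants, so mutant replicate 3 overlapped the controls. Kcnj4 had 8329.8, 9036, 6384 and 6574 in controls and 5662, 5776, 3948 and 4470.3 in mutants, with no overlap. The highest value of the list was 0.04 (Grin2a, an NMDA receptor subunit). Of the 7 Homer ligands 0 were called, with a median of -0.19, from -0.99 for Ryr1, a calcium release channel with at most 142.2 normalized counts in any library, to 0.19 for Itpr1, an inositol trisphosphate receptor.

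Of 16 other MAGUK and PDZ scaffolds, 2 were called lower and 2 higher, with a median of 0.10. Those lower were Grip1, which binds AMPA receptor subunits (log2 fold change -0.69), and Lin7b, a small PDZ protein (-0.61). Those higher were Tjp1, the tight junction protein ZO-1, at 1.01, and Mpp5, a polarity MAGUK, at 0.60 (all with an adjusted p of 0.58 from limma). The 4 mutant values of Grip1, 671 to 921, lay below its controls, 1192 to 1411. Tjp1, which endothelial cells also express, was highest in mutant replicates 4 and 5 (14101 and 11546). The 7 scaffolds of inhibitory synapses were all below 0 with 0 called and a median of -0.08, from -0.46 (Shisa7, a GABA-A receptor auxiliary protein) to -0.02 (Insyn2a). The study chose Cacng2 and Nlgn3 among its candidates on these same libraries, from postsynaptic genes that were lower in mutants in its own comparison. Their direction is therefore not independent evidence. In the fit used here Nlgn3 was not called, with a log2 fold change of -0.14 (adjusted p = 0.916 from limma). It had 6128, 24939, 16228 and 12729 normalized counts in controls and 14161, 16462, 10414 and 8867 in mutants. The genotypes thus overlapped, and the lowest value of all libraries, 6128, was a control.

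Several lists of cell type markers had medians further from 0 than the scaffolds did. All 13 markers of MGE-derived interneurons were below 0, 4 were called lower (Pvalb, Gad1, Gad2 and Kcnc1), and the median was -0.93, from -2.08 (Pvalb) to -0.11 (Maf). Of 8 oligodendrocyte markers 3 were called lower (Mog, Mag and Opalin; median -0.64), and of 8 endothelial and mural markers 3 were called higher (Flt1, Kdr and Pdgfrb; median 0.54). Markers of excitatory neurons included Neurod6, called lower at -0.70 (median of the list -0.18), and astrocyte (median -0.11) and microglia markers (median -0.38) had 0. With values taken relative to the MGE markers in each library, every gene's fold change moved up by the same 0.88. Then 0 of the 10 scaffold genes were below 0, and their median was 0.89 beside 0.93 for all genes. Dlg1 joined Homer3 among those called higher, where 4313 of the 31171 genes tested were called higher. The part of these marker levels in the scaffold values was not tested.

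**Figure D5:**
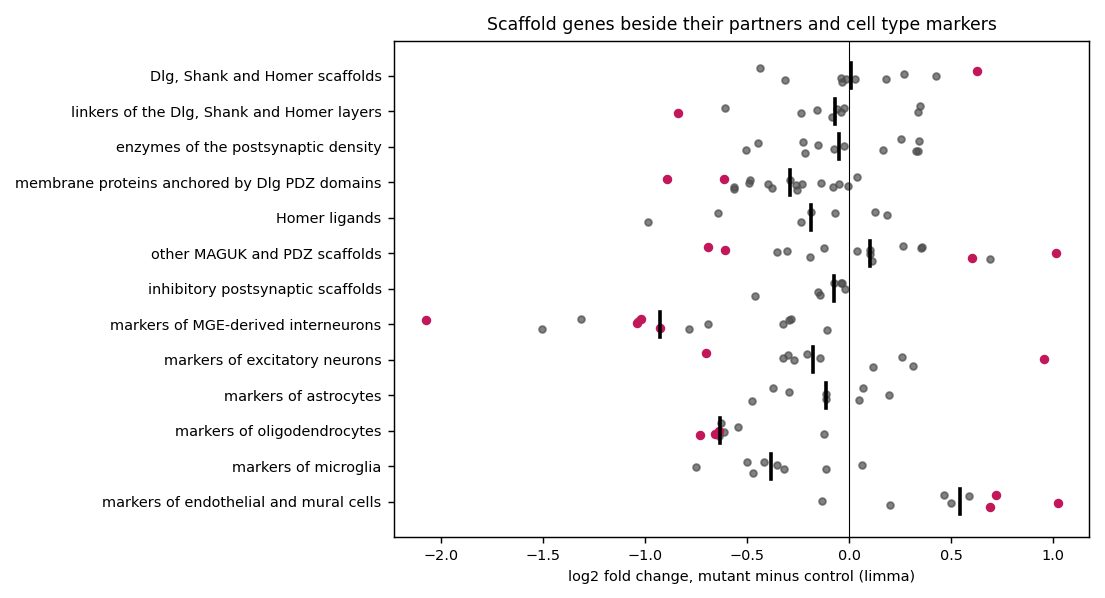
Log2 fold change (mutant minus control, limma) of every tested gene in the scaffold list, 6 lists of related synaptic genes and 6 lists of cell type markers, each point a gene and each bar the list's median; coloured points are genes called. The scaffold median lies at 0.01, that of the membrane proteins anchored by Dlg at -0.29 and that of the MGE markers at -0.93.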

How the data were processed

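The signal analysed is the normalized count that the authors deposited for each gene and library. They aligned reads to mm10 with STAR 2.4.0, counted those on constitutive regions of Mouse Fast DB genes and divided the counts by a DESeq2 size factor per library. The table holds no columns of the authors' own comparisons. All 8 columns matched a sample title, and the study's methods call the 4 libraries of each genotype biological replicates. Dividing by the value of 1 read gave whole reads for 100% of the values (tolerance 0.01). Controls had 51010687 to 80226984 reads and mutants 58967504 to 74609576, so the spread between libraries, not depth, limits precision.

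Genes averaging 10 or more in either genotype were fitted with limma 3.58.1 (eBayes with trend, R 4.3.3) on log2(normalized count + 1), which understates changes of low genes, without covariates. Benjamini-Hochberg adjustment ran over the 31171 genes tested. Calls used the thresholds of the study's methods. Count tests on the recovered reads (edgeR 4.0.16, quasi-likelihood with TMM; DESeq2 1.42.0), other scalings, filters and pseudocounts, a replicate block and leaving out each library were alternatives. Transcript and coding lengths came from GENCODE M21, matched by symbol and place for 16589 genes. The genes named are the 10 scaffold genes, Erbb4, Rpl22, the called, lowest and highest genes of each list, and the genes nearest in pattern, of which some are not reported here. The Dlgap genes, Ddx49, Sst, Mbp, Pecam1, Acta2, Cdh5 and Rgs5 were named after their values were seen. The members and the lists were chosen with earlier results of these data known.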

Additional observations from a re-analysis of the deposited data

How the results depend on the processing

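Over the alternative settings of each scaffold gene's fold change, left-out libraries and the block apart, 102 kept direction and side of the threshold, 16 changed sign, 1 passed the threshold and 1 fell short of it. Genes called lower numbered 415 and called higher 2255 with reads scaled to the library total, 38 and 4313 relative to the MGE markers, and 1633 and 1997 with library weights. DESeq2 called 1573 lower. At an adjusted p under 0.05, 14 were lower and 0 higher, with 0 scaffold genes higher. Without trend, 0 scaffold genes were called higher, and relative to the MGE markers 2 were (Dlg1 and Homer3). Scaffold genes below 0 numbered 3 with quantile normalization, 2 with the library total and 0 relative to the MGE markers, where the median was 0.89. Signs turned with the library total for Dlg2 (0.14), Dlg3 (0.15) and Shank3 (0.17), relative to the MGE markers for Dlg2 (0.84), Dlg3 (0.84), Dlg4 (0.56), Shank3 (0.86) and Homer2 (0.44), with quantile normalization for Dlg3 (0.0013) and Shank3 (0.024), and with TMM for Shank3 (0.007). They turned for Shank1 with edgeR (-0.11), DESeq2 (-0.11) and library weights (-0.46), and for Shank2 with DESeq2 (-0.0012) and library weights (-0.26). Leaving out 1 library gave 511 to 1958 genes called lower, 614 to 1774 higher, 0 to 1 scaffold genes lower (Homer2 without control replicate 4), 0 to 1 higher, 2 to 7 below 0 and a median of -0.20 to 0.13. The fold change ranged from -0.28 to 0.10 for Dlg2, -0.21 to 0.074 for Dlg3, -0.65 to -0.04 for Dlg4, -0.46 to 0.53 for Shank1, -0.15 to 0.16 for Shank2 and -0.20 to 0.11 for Shank3. Deviations of same-numbered libraries correlated at 0.10, 0.098 and 0.082 (replicates 3, 4 and 5), so the numbers were not taken as pairs. With a replicate block, 1719 genes and 1 scaffold gene (Dlg4, -0.61, adjusted p = 0.334 from limma) were called lower, and Shank1 (-0.46) and Shank2 (-0.16) turned. The causes of these changes were not tested. Precision was limited by 4 libraries per genotype and not by reads per gene.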
